A study of Mus musculus with 14 samples.

Results

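The genes described here build the matrix between cells: collagens, the proteins that bind and space collagen fibrils, basement membrane components, elastic fibre proteins and tendon genes. They were taken from a list of 40 symbols, of which 39 had a named probe on the array, out of 21893 named genes in all. Fbn1, the 40th symbol, was not analysed here. The 39 genes fall into 7 classes by protein type, with 5 fibrillar collagens, 6 fibril-associated, beaded and network collagens, 7 basement membrane genes, 4 small leucine-rich proteoglycans, 6 adhesive and matricellular genes, 6 elastic fibre genes and 5 tendon genes. Each gene was read from 1 probe, the one with the highest mean log2 value over all arrays.

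Newborn mice, aged 1 day, gave total RNA of brain and of skeletal muscle, which was hybridised to 14 Agilent arrays in 1 colour (Cy3). Wild-type (WT) mice were C57BL6. Cugbp1 knockout (KO) mice derived from BayGenomic embryonic stem cells, in which a gene trap vector lies ahead of the start codon of Cugbp1, injected into C57BL6. No group received a treatment. Each genotype had 3 muscle arrays and 4 brain arrays. Cugbp1, now named Celf1, encodes an RNA-binding protein that acts on splicing, translation and decay of mRNA, and the study asked how its loss alters the transcriptome of both tissues. Litter and sex are not given in the labels, so p-values measure the spread between these samples only. A level below is the log2 intensity minus the 75th percentile of the array, so that levels of 1 gene can be compared between arrays, whereas levels of different genes cannot be ranked.

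Fibrillar collagens are secreted as triple helices, cut and assembled into fibrils, and fibril-associated collagens and leucine-rich proteoglycans set how those fibrils are spaced and joined. Basement membranes are thin sheets of collagen IV, laminin and nidogen that surround muscle fibres, nerves and vessels, and in the brain they line the vessels and the pial surface. In skeletal muscle the interstitial matrix is made mainly by fibroblasts of the connective tissue, and it passes into tendon, whose cells express Scx, Mkx and Tnmd; in the brain such fibroblasts sit in the meninges and around vessels.

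Celf1 was measured first, as the targeted gene. Its level in muscle was 1.81, 2.03 and 1.67 on the WT arrays and -0.43, -1.30 and -1.08 on the KO arrays. In brain it was 2.30, 2.32, 2.28 and 2.35 in WT and 0.69, 0.63, 0.57 and 0.51 in KO. The highest KO array was below the lowest WT array in either tissue, and a residual signal remained on every KO array. The log2 fold change was -2.77 ± 0.30 (SE) in muscle, with an adjusted p of 0.312 by limma over all genes, and -1.71 ± 0.08 in brain, with an adjusted p of 5.3e-04. Sums of a list, here and below, add intensities divided by the 75th percentile of the array, not log2 levels, so bright probes weigh most. Muscle and brain matched their labels, since the sum of 18 muscle fibre markers ran from 1777 to 2837 in muscle against 2.54 to 5.14 in brain, and that of 10 neuron markers from 199 to 224 in brain against 19.8 to 30.2 in muscle. The 75th percentiles of the arrays ranged from 883 to 1398 in intensity, and no member had a blank value.

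Some arrays stood apart before any comparison. On the KO muscle arrays, the 19 cartilage and bone markers had median deviations from the muscle mean of 1.09, -0.90 and 1.13 on the log2 scale, against -0.83, -0.07 and -0.59 on the WT arrays. The 17 keratinocyte markers deviated by 0.93, 1.87 and -0.48 in KO and by -0.67, -0.40 and -0.15 in WT. On WT muscle array 1, 8 adipocyte markers deviated by 1.61, against -0.95 to 0.76 on the other muscle arrays. In muscle, 5 erythroid markers deviated by 1.84 on WT array 3 and by -1.63 on KO array 3, against -0.76 to 0.35 on the others. In brain, 13 hypoxia genes deviated by 1.12 and 1.25 on WT arrays 3 and 4 and by -0.66 to -0.05 on the other 6, and on WT array 3 of muscle the same list deviated by 2.26. Values without such arrays are given beside several of the results.

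Almost all matrix genes were lower in WT brain than in WT muscle. Of the 39 genes, 36 were lower and 1 was higher at an adjusted p under 0.05 by limma, while 58.5% of all genes differed in either direction, 31.4% being lower and 27% higher. The median log2 difference over the 39 genes was -3.47, or 11.1-fold lower, beside -0.04 over all genes. In bulk tissue, fewer cells of a type and less RNA per cell cannot be told apart. KO brain against KO muscle, which uses other arrays but shares the estimate of spread, gave 37 lower and 0 higher, beside 59.4% of all genes that differed and 31% that were lower, with a median of -3.40.

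**Figure D1:**
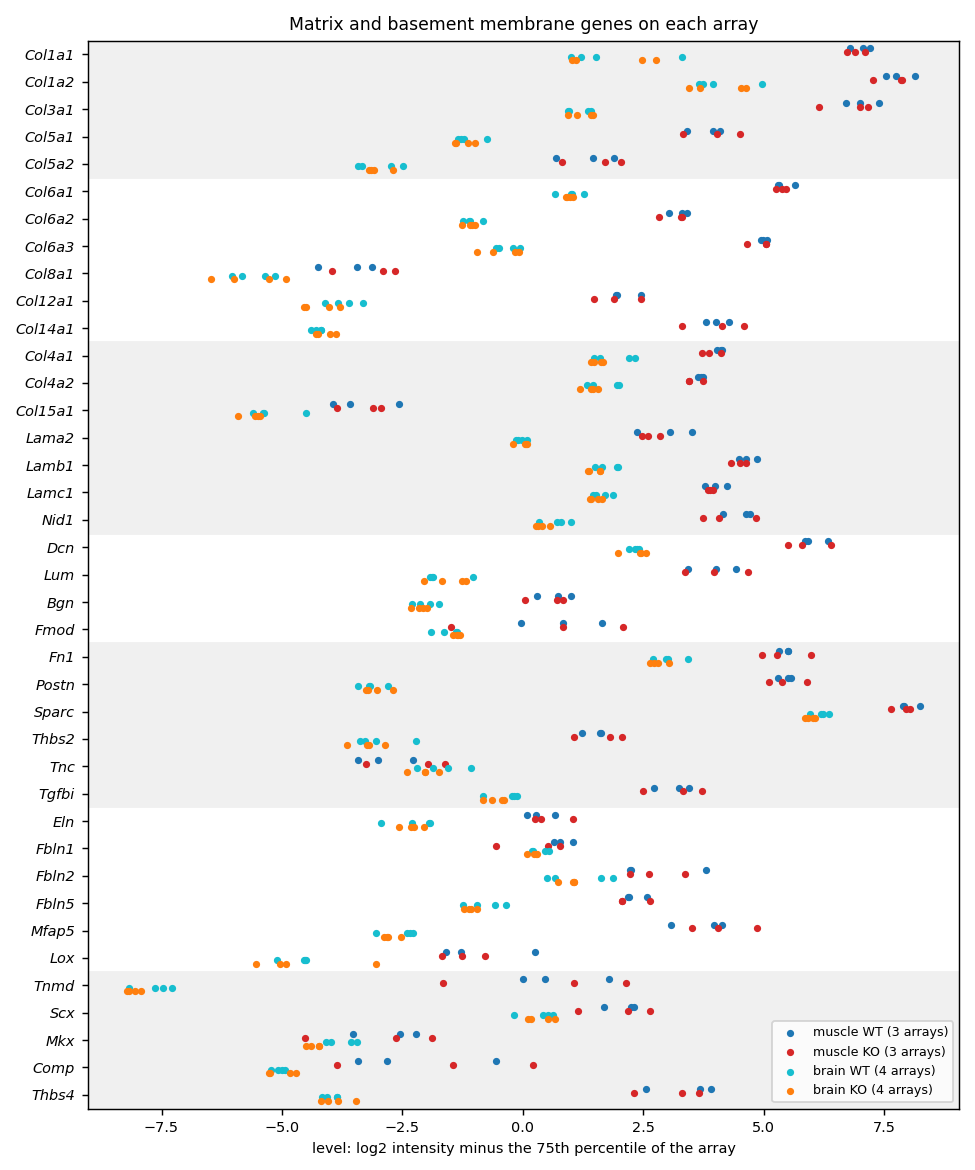
Level of each matrix gene (log2 intensity minus the 75th percentile of the array) on every array, 1 row per gene and 1 point per array, in muscle WT (3), muscle KO (3), brain WT (4) and brain KO (4); shaded bands separate the 7 classes, and points compare only within a row. Brain points lie to the left of muscle points for nearly all genes, the exceptions being Tnc, Fbln1, Mkx and Fmod, where points of the tissues meet.

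Postn, which encodes periostin, a matricellular protein of connective tissue, had the lowest log2 difference of the 39 genes in WT, while in KO that of Tnmd was lower (-8.61 against -8.51). Its level was 5.57, 5.50 and 5.30 on WT muscle arrays and 5.37, 5.89 and 5.11 on KO muscle arrays. In brain it was -3.18, -2.81, -3.43 and -3.20 in WT and -3.21, -3.26, -2.69 and -3.04 in KO. The muscle and brain arrays were far apart, and the genotypes overlapped within each tissue. WT brain was 390-fold below WT muscle (log2 -8.61 ± 0.21 SE, adjusted p = 3.8e-12 by limma).

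Promoter windows are shown for genes from the extremes of this comparison, Postn, which was far lower in brain, and Tnc, the gene that was higher there, for Tnmd, which varied most between muscle arrays among the genes with a window, and for Col1a2, a collagen I chain that varied between brain arrays. They are the 250 bases before a transcript start in RefSeq on GRCm38.p6, each 5′ to 3′ on the gene's strand, at chr3:54360857-54361106 (Postn, plus strand, 1 of 2 starts), chr4:64046937-64047186 (Tnc, minus strand, 1 of 2 starts), chr6:4505368-4505617 (Col1a2, plus strand) and chrX:133850758-133851007 (Tnmd, plus strand). Capitals mark the TATA motif TATAAA, the CAAT motif CCAAT and the GC motif GGGCGG, none of which overlap one another here, searched on both strands.
Postn: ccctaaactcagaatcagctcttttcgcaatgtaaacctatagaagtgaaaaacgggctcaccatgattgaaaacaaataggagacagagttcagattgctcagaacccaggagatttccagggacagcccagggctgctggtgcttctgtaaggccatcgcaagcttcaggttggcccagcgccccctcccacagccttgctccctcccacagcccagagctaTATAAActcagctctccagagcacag
Tnc: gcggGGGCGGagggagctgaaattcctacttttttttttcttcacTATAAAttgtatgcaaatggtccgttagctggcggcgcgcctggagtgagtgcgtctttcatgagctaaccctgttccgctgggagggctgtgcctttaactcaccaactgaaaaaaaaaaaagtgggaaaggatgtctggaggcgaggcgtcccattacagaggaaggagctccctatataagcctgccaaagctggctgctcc
Col1a2: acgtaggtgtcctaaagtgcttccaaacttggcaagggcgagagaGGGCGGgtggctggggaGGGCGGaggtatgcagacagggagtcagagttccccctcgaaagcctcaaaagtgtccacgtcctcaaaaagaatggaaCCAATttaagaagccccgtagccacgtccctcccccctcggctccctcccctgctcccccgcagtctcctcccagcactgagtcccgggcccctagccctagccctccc
Tnmd: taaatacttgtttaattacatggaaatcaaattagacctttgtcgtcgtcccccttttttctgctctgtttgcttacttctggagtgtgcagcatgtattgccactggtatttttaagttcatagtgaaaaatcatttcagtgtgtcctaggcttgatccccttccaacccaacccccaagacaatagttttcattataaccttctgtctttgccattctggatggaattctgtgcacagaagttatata
Postn and Tnc each held 1 TATAAA, Tnc also held 1 GGGCGG, Col1a2 held 2 GGGCGG and 1 CCAAT, and Tnmd held none of these motifs. Of the 25 members with a window in the table, 4 held TATAAA (16%), 7 held CCAAT (28%) and 14 held GGGCGG (56%), whereas 14.3%, 37.5% and 35.4% of the 27025 genes with a window did. A match describes these letters only. The members without a window in the table are Col1a1, Col5a2, Col12a1, Col14a1, Lamc1, Dcn, Lum, Fn1, Eln, Mfap5, Lox, Scx, Mkx and Comp.

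The 5 fibrillar collagens form the main fibrils of skin, bone, tendon and muscle connective tissue, and all of them were lower in WT brain. Their median log2 difference was -4.96. Col3a1, the chain of collagen III, was 58.4-fold lower (-5.87 ± 0.26), and Col1a1 and Col1a2, the chains of collagen I, were 38.6-fold (-5.27 ± 0.54) and 13.3-fold (-3.74 ± 0.36) lower. Col5a1 and Col5a2, chains of collagen V that starts fibrils, differed by -4.96 ± 0.27 and -4.34 ± 0.34. KO brain against KO muscle gave -5.53, -5.07, -3.59, -5.18 and -4.56 for Col3a1, Col1a1, Col1a2, Col5a1 and Col5a2.

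Of the fibril-associated and beaded collagens, Col14a1, a collagen on the surface of fibrils, had levels of 4.28, 4.01 and 3.80 in WT muscle and -4.40, -4.30, -4.19 and -4.18 in WT brain. The groups did not overlap, and brain was 315-fold lower (-8.30 ± 0.25, adjusted p = 2.0e-11 by limma). A second Col14a1 probe gave -5.42. Col12a1, another fibril-surface collagen, was lower by -5.83 ± 0.28, and a dim second probe gave -1.50.

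Collagen VI forms beaded filaments next to the basement membrane of muscle fibres from 3 chains. Col6a1 was at 5.29, 5.33 and 5.64 in WT muscle and at 0.67, 1.27, 1.01 and 1.02 in WT brain. Col6a2 was at 3.30, 3.41 and 3.04 in muscle and at -1.24, -0.82, -1.11 and -1.10 in brain. For Col6a3, muscle lay at 4.95, 4.98 and 5.06, and brain at -0.55, -0.05, -0.50 and -0.21. Each chain was clearly apart between the tissues, with log2 differences of -4.43 ± 0.16, -4.32 ± 0.17 and -5.32 ± 0.22. In muscle these 3 genes were among the steadiest of the list, ranging 1.31-, 1.50- and 1.32-fold over all 6 arrays. Col8a1, a short-chain network collagen, differed by -1.99 ± 0.43 and was dim in both tissues.

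On the probes used, basement membrane genes had the class median nearest 0 between the tissues, at -2.36 over 7 genes, all 7 lower in WT brain. This place in the order of classes depended on the probe of Col15a1, as given below. The nearest class medians were -2.79 for tendon, -2.87 for elastic fibre and -2.94 for adhesive and matricellular genes. The difference between classes was not tested. Col4a1 and Col4a2, which pair in the collagen IV network, were lower by -2.19 ± 0.21 and -2.01 ± 0.18, and Lamc1, the common laminin gamma chain, by -2.36 ± 0.15. Lamb1, a laminin beta chain, Lama2, the laminin alpha chain of muscle fibres, and Nid1, nidogen, which links laminin to collagen IV, differed by -2.89 ± 0.17, -3.02 ± 0.22 and -3.80 ± 0.25. Col15a1, a collagen at the outer face of basement membranes, was lower by -1.86 ± 0.35 on a dim probe, and 2 other dim probes gave -4.89 and -4.51. With either of these 2 in its place, the middle value of the 7 genes is that of Lamb1, -2.89. That value lies beyond the tendon and elastic fibre medians, so the basement membrane class would no longer be nearest 0. A second probe of Lama2 gave -3.98, and other probes of Nid1 gave -3.34 and -1.998.

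All 4 small leucine-rich proteoglycans, which bind collagen fibrils, were lower in WT brain. Lum, lumican, differed by -5.63 ± 0.35, Dcn, decorin, by -3.71 ± 0.21, Bgn, biglycan, by -2.70 ± 0.23, and Fmod, fibromodulin, by -2.39 ± 0.62. For Fmod, KO brain and KO muscle overlapped, although that contrast also passed the threshold (-1.84 ± 0.62, adjusted p = 0.0219 by limma).

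Tnc, tenascin-C, a matricellular protein of developing tendon and brain, was the 1 gene higher in WT brain. Its level was -3.01, -2.29 and -3.43 in WT muscle and -1.07, -2.20, -1.55 and -1.87 in WT brain. The groups did not overlap, although WT brain array 2 and WT muscle array 2 were close. The difference was 1.24 ± 0.39 (2.36-fold, adjusted p = 0.0152 by limma), and a second probe gave 1.65. With WT muscle array 3 left out it was 0.98, with an adjusted p of 0.0731 by limma, and with WT brain arrays 3 and 4 left out 1.28, with an adjusted p of 0.0554. In KO, Tnc was at -1.61, -3.25 and -1.98 in muscle and at -2.03, -2.03, -1.74 and -2.41 in brain. Those arrays overlapped, and the difference was 0.23 (95% interval -0.62 to 1.07, adjusted p = 0.635 by limma).

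The other adhesive genes were lower in WT brain. Thbs2, thrombospondin 2, and Tgfbi, an integrin-binding matrix protein, differed by -4.47 ± 0.31 and -3.47 ± 0.29, and Fn1, fibronectin, by -2.41 ± 0.23. Sparc, a collagen-binding glycoprotein, differed by -1.82 ± 0.15 on a probe with intensities up to 304230 in muscle, and by -7.36 on a dimmer probe, so the size depended on the probe. Saturation flags were not used here.

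Among the elastic fibre genes, Fbln1, fibulin-1, did not pass the threshold. Its level was 0.65, 0.76 and 1.04 in WT muscle and 0.22, 0.19, 0.47 and 0.55 in WT brain. Brain lay below muscle on these arrays by a small margin, with a difference of -0.46 ± 0.26 (95% interval -1.02 to 0.10, adjusted p = 0.153 by limma). The other 2 probes of Fbln1 gave -1.86 and -1.50, and the mean of its probes differed by -1.27 with an adjusted p of 0.00805. Mfap5, a microfibril protein, was 75.6-fold lower in brain (-6.24 ± 0.32), Lox, which cross-links collagen and elastin, differed by -3.79 ± 0.55, and Fbln5, Eln, elastin itself, and Fbln2 by -3.11 ± 0.22, -2.63 ± 0.27 and -1.59 ± 0.43. A second probe of Lox gave -4.80, and a dim second probe of Fbln5 gave -1.97.

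Of the tendon genes, Tnmd, tenomodulin, had intensities of 976 to 3997 in WT muscle and of 3.4 to 8.9 in WT brain, where 2 of 4 arrays, and all 4 in KO brain, lay within 2-fold of the lowest value of their array. The fitted difference of -8.40 ± 0.69 therefore ends at the dim limit of the array in brain. Thbs4, thrombospondin 4, was 165-fold lower in WT brain (-7.37 ± 0.35), Comp, a cartilage and tendon matrix protein, differed by -2.79 ± 0.79, and Scx, the transcription factor of tendon progenitors, by -1.73 ± 0.32. Mkx, a homeobox factor of tendon, was at -3.52, -2.55 and -2.21 in WT muscle and at -4.09, -3.99, -3.44 and -3.57 in WT brain. The groups overlapped, and Mkx did not pass the threshold (-1.01 ± 0.49, 95% interval -2.08 to 0.05, adjusted p = 0.0956 by limma). Without WT muscle array 1 the value was -1.39 with an adjusted p of 0.0411.

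Genes that fold, cut and cross-link collagen, further basement membrane and interstitial genes, matrix receptors and TGF-beta pathway genes added 104 genes to this picture. In WT brain 76 of them were lower and 8 were higher than in WT muscle, or 80.8% in all, beside 58.5% of all genes. The interstitial list had 26 of 30 lower and 1 higher. Matrix receptors had 17 of 22 lower and 1 higher, TGF-beta pathway genes 10 of 13 lower and 0 higher, and collagen processing genes 15 of 23 lower and 2 higher. The other basement membrane genes had 9 of 17 lower and 4 higher. Ltbp1 stands in 2 of the lists. Over all genes, 31.4% were lower and 27% were higher in this comparison.

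The 4 basement membrane genes that were higher in WT brain are named after their values were seen. They were Lama1, the laminin alpha chain of the pial surface, at 4.68 ± 0.37, Col4a6, a minor collagen IV chain, at 3.41 ± 0.61, Lamc3, a laminin gamma chain, at 2.81 ± 0.30, and Agrn, agrin, at 1.68 ± 0.15. In KO they were again higher in brain, at 4.58, 3.51, 3.19 and 1.87 in the same order, each at an adjusted p under 0.05 by limma. These 4 stand against the 7 basement membrane members described above, all of which were lower in brain.

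Loss of Cugbp1 was not accompanied by a called change in any matrix gene in muscle. By limma 0 of 39 genes passed an adjusted p of 0.05, beside 0% of all genes, and 0 of 39 had an unadjusted p under 0.05, beside 1.56% of all genes. The median log2 fold change of KO against WT was -0.10, with 12 genes above 0 and 27 below, while the median of all genes was -0.03. The sign of the members' median depended on the scaling, since it was 0.02 after quantile normalization and 0.06 with no scaling. No gene had its KO arrays all above or all below its WT arrays, beside 3.95% of all genes that did. In data of this size simulated with independent noise, 0% of genes changed 2-fold, 54% of those changed 4-fold and 97% of those changed 16-fold were recovered. Small changes could thus not be detected here. In the real muscle data the targeted Celf1, 6.83-fold lower in KO, had an adjusted p of 0.312 by limma, so changes of that size could be missed too.

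The 5 genes with the smallest p in muscle are given as values. Fbln1 was at 0.65, 0.76 and 1.04 in WT and at 0.52, 0.78 and -0.56 in KO, where array 3 was low (-0.57 ± 0.39, adjusted p = 1.00). Tnc was at -3.01, -2.29 and -3.43 in WT and at -1.61, -3.25 and -1.98 in KO (0.63 ± 0.50, adjusted p = 1.00). Lama2 was at 2.37, 3.06 and 3.50 in WT and at 2.48, 2.59 and 2.84 in KO (-0.34 ± 0.34, adjusted p = 1.00). In each of these the groups overlapped. Other probes gave -0.73 and -0.83 for Fbln1, 0.68 for Tnc and -0.33 for Lama2. Col8a1 was at -4.26, -3.13 and -3.43 in WT and at -2.90, -3.97 and -2.64 in KO (0.44 ± 0.45, adjusted p = 1.00). Mfap5 was at 4.13, 3.96 and 3.08 in WT and at 3.51, 4.86 and 4.04 in KO (0.41 ± 0.44, adjusted p = 1.00). The groups overlapped here too, and all 5 adjusted p-values are from limma over all genes.

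Each of these 5 fold changes moved by over 1.5 times with 1 array left out, although none changed sign. Fbln1 was at -0.17 without KO array 3. Tnc was at 0.30 without KO array 1, at 1.12 without KO array 2 and at 0.37 without WT array 3. Lama2 was at -0.64 without WT array 1 and at -0.08 without WT array 3, the array with the high hypoxia markers, so these values rest on single arrays. Col8a1 was at 0.11 without WT array 1, at 0.67 without WT array 2, at 0.83 without KO array 2 and at 0.17 without KO array 3. Mfap5 was at 0.73 without KO array 1, at 0.05 without KO array 2 and at 0.09 without WT array 3.

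The intervals show what these data allow. For Col6a1 the 95% interval of the log2 fold change ran from -0.60 to 0.48, for Col1a1 from -0.69 to 0.46 and for Col4a2 from -0.66 to 0.38. For Comp it ran from -2.15 to 3.29, for Tnmd from -2.58 to 2.12 and for Fmod from -2.49 to 1.83. Basement membrane genes had a median of -0.17, with 6 of 7 below 0, which was -0.08 without WT array 3 and -0.10 without KO array 3. Tendon genes had a median of -0.23, with 4 of 5 below 0. Without KO array 2 all 5 tendon genes lay above 0 (median 0.50), and without KO array 3 all 5 lay below (median -0.58), and without WT array 2 the median was 0.03, so single arrays set its sign. Leaving out KO array 1 gave -0.41, WT array 1 gave -0.38 and WT array 3 gave -0.004.

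**Figure D2:**
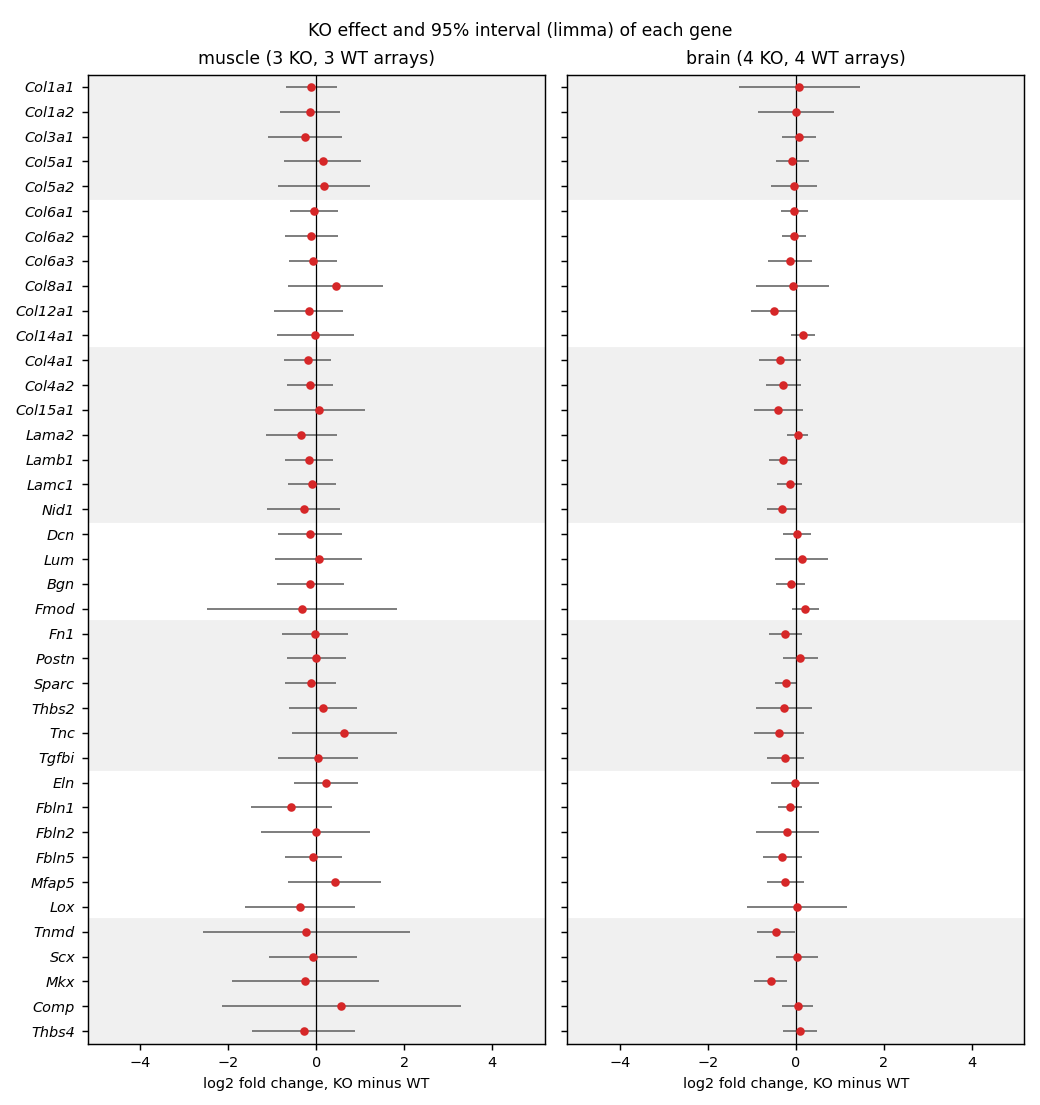
Log2 fold change of KO against WT for each of the 39 genes in muscle (3 KO and 3 WT arrays, left) and brain (4 KO and 4 WT arrays, right), with 95% intervals from limma and shaded bands for the classes. Every muscle interval crosses 0 and is widest for Comp, Tnmd and Fmod, and in brain the intervals of Mkx and Tnmd lie below 0 before adjustment.

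In brain, too, 0 of 39 genes passed the threshold by limma, beside 0.0228% of all genes. Unadjusted p-values were under 0.05 for 2 of the 39, Mkx and Tnmd, beside 8.35% of all genes. The median log2 fold change was -0.11, with 13 genes above 0 and 26 below, and 0.01 over all genes. Only Mkx had all KO arrays below all WT arrays, beside 2.45% of all genes that were apart in that direction.

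Mkx was at -4.09, -3.99, -3.44 and -3.57 in WT and at -4.49, -4.23, -4.40 and -4.23 in KO brain. WT arrays 3 and 4 were the highest, and the fold change was -0.57 ± 0.16 (1.48-fold lower, adjusted p = 0.580). Tnmd was at -8.17, -7.29, -7.64 and -7.48 in WT and at -7.93, -8.17, -8.21 and -8.05 in KO, at the dim limit described above (-0.45 ± 0.19, adjusted p = 0.580). Col12a1 was at -3.84, -3.31, -4.10 and -3.61 in WT and at -3.79, -4.49, -4.55 and -4.03 in KO (-0.50 ± 0.23, adjusted p = 0.580). The last 2 genes overlapped between the genotypes.

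Basement membrane genes complete the 5 smallest p-values. Nid1 was at 0.71, 0.33, 0.79 and 0.99 in WT and at 0.28, 0.32, 0.57 and 0.40 in KO (-0.31 ± 0.15, adjusted p = 0.580). Lamb1 was at 1.64, 1.50, 1.97 and 1.98 in WT and at 1.61, 1.35, 1.60 and 1.37 in KO (-0.29 ± 0.14, adjusted p = 0.580 by limma). In both, WT arrays 3 and 4 were the highest and WT array 2 lay among the KO arrays.

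The basement membrane class had a median of -0.29 in brain, with 6 of 7 genes below 0. Without WT arrays 3 and 4 that median was 0.01, with 3 of 7 below 0. Col4a1 was at 1.48, 1.60, 2.33 and 2.20 in WT and at 1.63, 1.48, 1.67 and 1.41 in KO. Its fold change was -0.36 with all arrays and 0.01 without those 2, and that of Col4a2 went from -0.28 to 0.01. Fbln2 went from -0.19 to 0.39, Nid1 from -0.31 to -0.13, Lamb1 from -0.29 to -0.09 and Mkx from -0.57 to -0.30. The same 2 arrays carried the high hypoxia markers given above, and the median deviations of 15 endothelial and pericyte markers there were 0.22 and 0.25, against -0.21 to 0.06 on the other 6 arrays. The 8 astrocyte markers deviated by 0.40 and 0.39 there, against -0.33 to 0.01 elsewhere, and 7 of the 8 lay below 0 in KO against WT, with a median of -0.29. Macrophage markers deviated by 0.34 and 0.22 on those arrays, against -0.28 to 0.20, and Schwann cell and nerve markers by 0.28 and 0.23, against -0.39 to 0.08. The part of any of these lists in the matrix values was not tested.

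**Figure D3:**
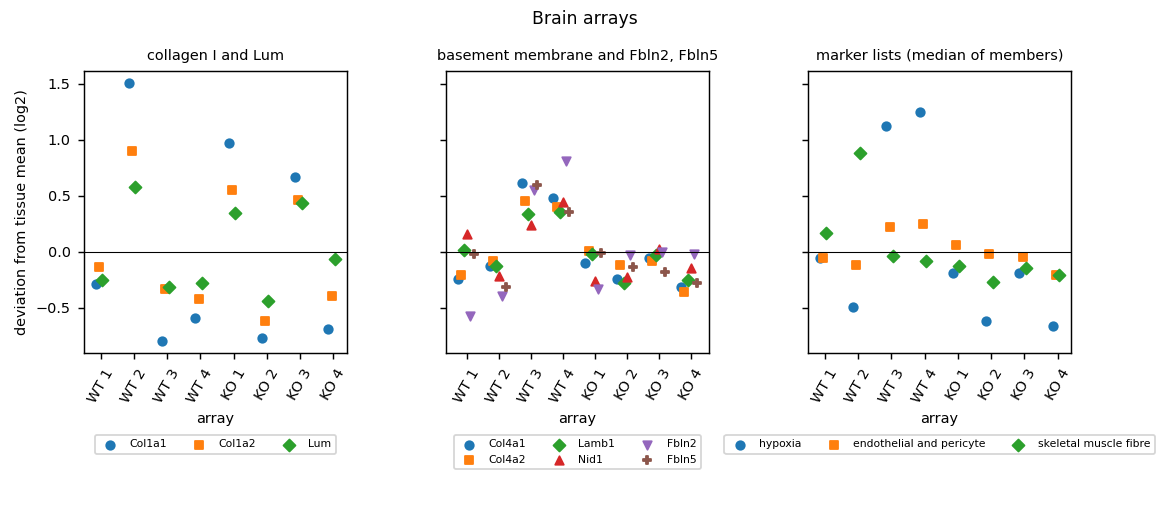
Deviation of each gene from its mean over the 8 brain arrays (log2) by array, for collagen I and Lum (left) and for the basement membrane genes Col4a1, Col4a2, Lamb1 and Nid1 with Fbln2 and Fbln5 (middle), beside the medians of hypoxia, endothelial and muscle fibre markers (right). Collagen I and Lum are high on WT array 2 and KO arrays 1 and 3, and the genes of the middle panel on WT arrays 3 and 4. Lamc1, Lama2 and Col15a1 of the basement membrane class are not shown. Lama2 (0.01 and -0.08) and Col15a1 (0.03 and -0.20) were not high on WT arrays 3 and 4.

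Collagen I and its companions varied between brain arrays in another way, within both genotypes. Col1a1 was at 1.51, 3.30, 1.00 and 1.21 in WT and at 2.77, 1.03, 2.47 and 1.10 in KO, a 4.91-fold range. Col1a2 was at 3.94, 4.97, 3.74 and 3.65 in WT and at 4.63, 3.46, 4.54 and 3.68 in KO. WT array 2 and KO arrays 1 and 3 were the highest for both chains. Lum was high on the same 3 arrays, at -1.86, -1.03, -1.92 and -1.89 in WT and at -1.27, -2.05, -1.17 and -1.67 in KO. On WT array 2, which was the highest brain array for 12 of the 39 genes, muscle fibre markers deviated by 0.88, and on KO arrays 1 and 3 by -0.13 and -0.15. On WT array 2 and KO arrays 1 and 3, meninges markers deviated by -0.028, -0.093 and 0.084. Fibroblast markers deviated there by 0.104, -0.003 and 0.045, and cartilage and bone markers by -0.042, 0.005 and 0.16. In that last list, Ibsp read 14.1 to 599 in WT and 24.3 to 491 in KO brain, and Alpl 97.9 to 186 and 105 to 131. The part of these lists in the collagen values was not tested. The KO fold change of Col1a1 was 0.09 (95% interval -1.30 to 1.47). Without WT array 2 it was 0.60 and without WT arrays 3 and 4 it was -0.56, so its sign depended on the arrays.

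Between muscle arrays the widest ranges belonged to the tendon genes Comp, Tnmd and Mkx and to Fmod, a proteoglycan that is abundant in tendon. Tnmd was at 0.46, 1.80 and 0.00 in WT and at 1.07, -1.66 and 2.15 in KO. Comp was at -3.41, -2.83 and -0.57 in WT and at -1.46, -3.85 and 0.20 in KO. Fmod was at -0.04, 0.83 and 1.63 in WT and at 0.84, -1.48 and 2.08 in KO. For each of them, and for Scx and Mkx, KO array 2 was the lowest and KO array 3 the highest of the 6. The ranges were 14.1-fold for Tnmd, 16.6-fold for Comp, 11.8-fold for Fmod, 6.14-fold for Mkx and 2.79-fold for Scx. Thbs4 was also lowest on KO array 2 and was highest on WT array 2.

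Some other members had the reverse order on those 2 arrays. Lum was at 4.43, 4.01 and 3.43 in WT and at 3.98, 4.67 and 3.37 in KO, and Postn, Dcn, Col5a1, Col14a1, Fn1 and the basement membrane gene Nid1 were likewise highest on KO array 2 and lowest on KO array 3, genes that were picked for this order. Col8a1, Tnc, Bgn, Lama2 and Col15a1 were lower on KO array 2 than on KO array 3, as the tendon genes were, with deviations of -0.58 and 0.75 for Col8a1 and of -0.65 and 0.62 for Tnc. Over the 39 genes, KO array 3 was the lowest for 19 and KO array 2 the highest for 14. Cartilage and bone markers summed to 10.9, 1.51 and 9.51 on the KO arrays and to 1.71 to 3.17 in WT, with 18 of 19 above 0 in KO against WT and Matn3 alone near the dim limit on every WT array. Keratinocyte markers summed to 7.57, 7.41 and 5.54 in KO and to 4.38 to 5.50 in WT, with 16 of 17 above 0, and Ivl, Dsg1a, Dsg3 and Dsc3 were near the dim limit on every WT array. Trp63 weighed most in these sums, at intensities of 3211 to 3936 in WT and 3179 to 4843 in KO muscle. In WT brain the Trp63 probe read 6721 to 8585, so the sums do not stand for keratinocytes alone. Muscle fibre markers summed to 2472, 1777 and 2377 in KO and to 2557 to 2837 in WT. The 14 fibroblast markers that are not matrix genes deviated by 0.39 on KO array 2, the highest, and by -0.33 on KO array 3, the lowest, with sums of 34.5 to 60.3 in WT and 42.8 to 74.2 in KO. Macrophage markers deviated by 0.84 on KO array 2 and by -0.67 to 0.24 on the others. The part of these lists in the values of the matrix genes was not tested.

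**Figure D4:**
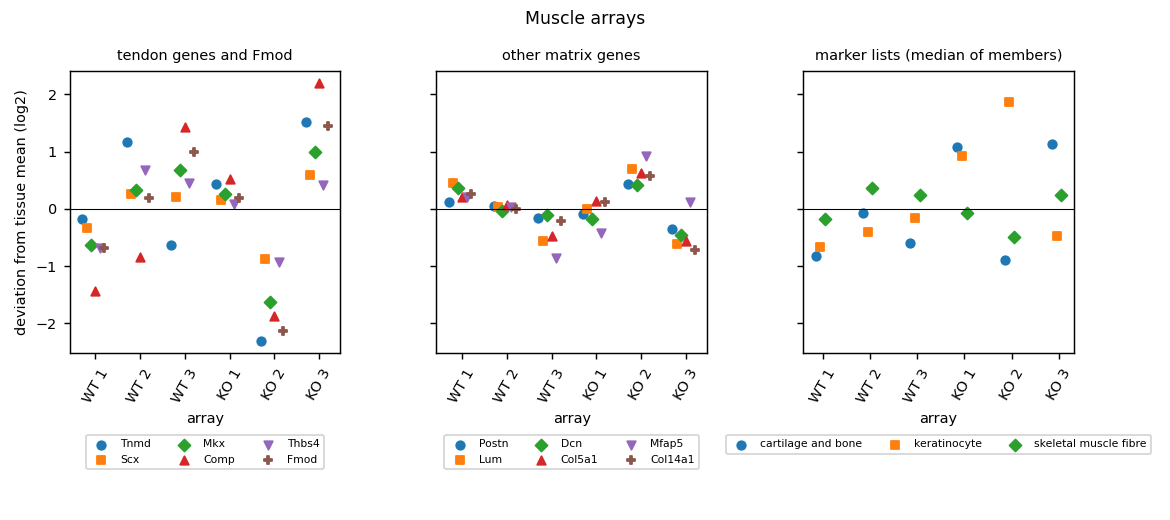
Deviation of each gene from its mean over the 6 muscle arrays (log2) by array, for tendon genes and Fmod (left) and for other matrix genes (middle), beside the medians of 3 marker lists (right). Tendon genes and Fmod are lowest on KO array 2, where the genes of the middle panel are highest. The middle panel is a selection, since KO array 2 was the highest for 14 of the 39 genes.

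The spread differed between the tissues. The median range of a gene over the arrays was 1.13 on the log2 scale in muscle and 0.78 in brain, and the median SD within a genotype was 0.45 in muscle and 0.26 in brain. Neighbouring genes of the list, which lie next to each other on their chromosome in RefSeq, form 4 pairs. Col4a1 and Col4a2, transcribed away from each other on chromosome 8, deviated most alike, with a largest difference between their deviations on any array of 0.12 in muscle and 0.16 in brain. That of Col6a1 and Col6a2 on chromosome 10 was 0.40 and 0.19, that of Dcn and Lum on chromosome 10 was 0.44 and 0.55, and that of Col3a1 and Col5a2 on chromosome 1 was 0.84 and 0.39. The bases from the Col4a2 start (plus strand) to the Col4a1 start (minus strand) are shown because these starts of the pair lie within the same short stretch, at chr8:11312805-11312826 on GRCm38.p6, plus strand, with GGGCGG in capitals. The Col4a1 start is the one in the promoter table, and it lies inside the extent that RefSeq gives the gene.
Col4a1 and Col4a2 starts: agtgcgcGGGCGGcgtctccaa

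**Figure D5:**
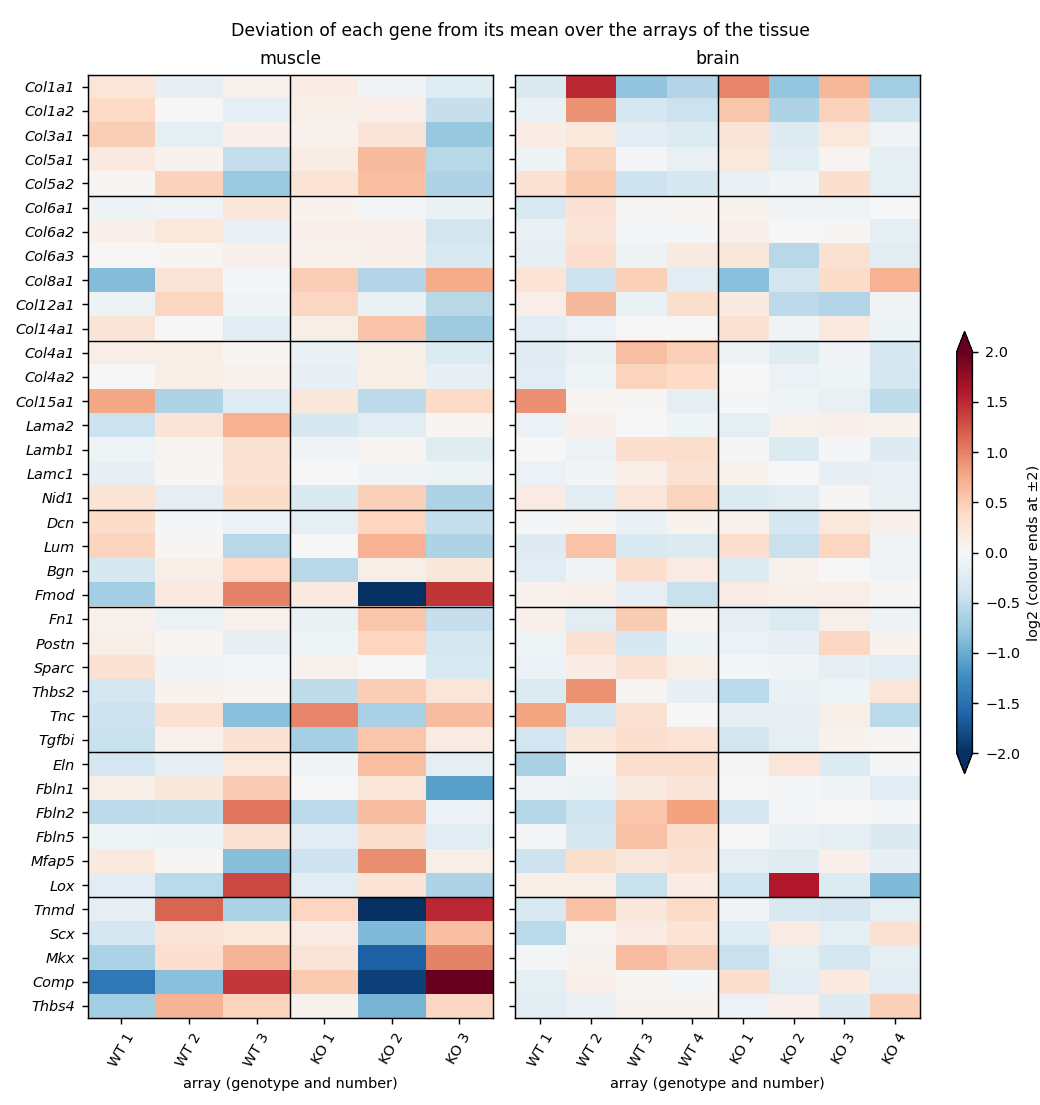
Deviation of each of the 39 genes from its mean over the arrays of its tissue (log2, colour) on 6 muscle and 8 brain arrays, with horizontal lines between the classes and a vertical line between WT and KO. The tendon rows and Fmod of muscle hold the strongest colours, with KO array 2 low and KO array 3 high.

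The KO effect was then compared between the tissues in 1 model over all 14 arrays. By limma 0 of 39 genes passed the threshold, beside 0.00914% of all genes, and 0 of 39 had an unadjusted p under 0.05, beside 3.09% of all genes. Tnc had the smallest p, at -1.01 ± 0.55 (brain effect minus muscle effect, 95% interval -2.21 to 0.19, adjusted p = 1.00). These contrasts share arrays with the comparisons within and between tissues, and their values are therefore not independent of them. For Tnc, a second probe had KO fold changes of 0.05 in brain and 0.68 in muscle. The probe used had -0.38 in brain and 0.63 in muscle, so the sign in brain depended on the probe. Of the 104 further matrix genes, 0 passed by limma in muscle, with 1 at an unadjusted p under 0.05, beside 1.56% of all genes, and 0 passed in brain, with 9 at that level, beside 8.35% of all genes.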

How the data were processed

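The deposited table holds 1 intensity per probe and array, 55681 probes on 14 arrays, from Agilent Feature Extraction per the submitters' processing notes, with its version not given in the sources used here. Background correction is not stated there, and detection and saturation flags were not used here. Of the probes, 30626 had 1 gene symbol in the platform annotation and 25055 were unnamed. Intensities were taken as log2 minus the 75th percentile over named probes of each array, with 1 probe per gene, the highest mean. KO and WT were compared within each tissue, and the tissues in 1 model over 14 arrays, with limma 3.58.1 in R 4.3.3, Benjamini-Hochberg adjustment over 21893 genes, and a threshold of 0.05. The method was tested on simulated data, which recovered 92% of genes changed 4-fold between brain genotypes.

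The members and lists were chosen with earlier results of these data known. Values on every array are given for the 5 smallest p-values of KO against WT in each tissue, for the tissue difference's smallest p-values and exceptions, and for genes singled out for their spread after their values were seen. Array numbers are shared between groups. Same-numbered arrays correlated in their deviations at 0.17, -0.08 and 0.20 between muscle genotypes, at -0.05 to 0.10 between brain genotypes, at 0.12, 0.23 and 0.21 between WT tissues and at 0.01 to 0.19 between KO tissues, so only the WT tissues met the rule for pairing, that every pair exceeds 0.1. Between unlike numbers, WT muscle array 3 and WT brain array 4 also correlated at 0.17, while the other unlike WT pairs ran from -0.19 to 0.05. Alternatives were no scaling, quantile normalization, 50 added to each intensity, the mean of probes, brighter genes only, a trended robust fit, all arrays in 1 model, the array number as a block, and each array left out.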

Additional observations from a re-analysis of the deposited data

Results flagged for a closer look

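Single brain arrays stood away from the other 3 of their group for 6 genes, by a gap above Dixon's 95% critical value for 4 samples. Of the 80 groups tested, chance alone would pick out about 1 in 20. Lama2, the laminin alpha chain of muscle fibres, was at -0.20 on KO array 1 and at 0.05 to 0.08 on the others. On the same array Fbln2, a fibulin of elastic fibres, was at 0.74, below 1.04 to 1.06. WT array 1 was low for Tgfbi, at -0.83 against -0.22 to -0.12, and for Mfap5, at -3.04 against -2.40 to -2.28. WT array 2 was high for Lum, at -1.03 against -1.92 to -1.86, and WT array 3 was low for Lox, at -5.10 against -4.54 to -4.50. Groups of 3 muscle arrays were not tested in this way.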

How the results depend on the processing

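Under all alternatives run, 0 of 39 genes were called for KO against WT in muscle (14 alternatives) and brain (17) and for the difference of these effects (23), while 32 to 38 were called between WT tissues and 31 to 37 between KO tissues. The median KO effect in muscle was 0.063 with no scaling, where the median of all genes was 0.14 in place of -0.03, and ran from -0.172 to -0.001 with 1 array left out. In brain it ran from -0.18 to -0.034. With the array number as a replicate block the counts were 0, 0, 37, 37 and 0, the medians -0.102 and -0.11, and no call on these genes changed. A block within genotype, chosen after seeing the data, gave 37 between WT and 35 between KO tissues. Over all genes, calls in muscle numbered 0, and 7 higher and 2 lower with all 14 arrays in 1 model. With 50 added, with brighter genes only and without KO array 2, 1 gene was called higher in each case. In brain the calls numbered 3 higher and 2 lower, 0 with the block or without WT arrays 3 and 4, and 3 higher and 6 lower without WT array 2. The cause was not tested. The number of arrays limits the precision, and brain values of Tnmd lie at the dim limit.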
